A study of Homo sapiens with 6 samples.

Results

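Integrins are cell surface receptors that bind the extracellular matrix, and the 10 integrin subunit genes described here were chosen by symbol: 5 α subunits (ITGA2, ITGA3, ITGA5, ITGA6 and ITGAV) and 5 β subunits (ITGB1, ITGB3, ITGB4, ITGB5 and ITGB6). They are 10 of the 27216 rows of the table and 10 of 26 integrin subunit genes known in humans. Their mRNA was measured by RNA-sequencing in H1975, a human non-small cell lung cancer line with mutant EGFR. The labels name DMEM with 10% FBS as the medium, while the study's methods name another medium. The parental group held 3 samples at 0 h and the adapted group held 3 samples after 72 h of Osi (osimertinib), an EGFR tyrosine kinase inhibitor, and the labels give the genotype of all samples as WT. The labels also give a dose of 1000 nM, and the study's text names the same dose for some other assays. Its list of reagents names a different one, and the dose used for these samples is therefore uncertain. The table names the parental columns DMSO, and the sources do not say if or how long those cells were kept in it, so Osi and time in culture cannot be told apart. All samples come from this 1 line, and nothing says whether replicates were separate cultures. The p-values therefore weigh the difference between groups against the spread between these samples, which may be technical. The extraction notes also name a digestion with RNase R, which removes linear RNA, whereas the methods name total RNA without that step, and the sources do not settle which was done. They also say that apoptotic cells were washed away before extraction. The comparison asks how the mRNA of these receptors in the cells left after 72 h of Osi differed from that in parental cells.

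An integrin is a heterodimer of 1 α and 1 β subunit, and the pair decides which matrix protein is bound. The β1 subunit pairs with many α subunits: α2β1 binds collagen, α3β1 and α6β1 bind laminin, and α5β1 binds fibronectin. The αV subunit pairs with β1, β3, β5, β6 and β8 and binds ligands that carry an RGD motif, while α6β4 anchors epithelial cells to the basement membrane in hemidesmosomes. Inside the cell, talin and kindlins bind the β tail and activate the receptor, which then gathers adaptors and kinases such as FAK and SRC into focal adhesions.

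In the adapted samples the mRNA of ITGA2, ITGA3, ITGA5, ITGA6 and ITGB4 was lower, and that of ITGAV and ITGB5 was higher. Among the tested members the largest differences were in ITGA5, the fibronectin receptor α subunit, at 2.61-fold lower FPKM, and in ITGA2, a collagen receptor α subunit, at 1.98-fold lower FPKM. FPKM scales the fragments of a gene to its transcript length and to the size of the library, so levels can be compared between genes. ITGB1, the most abundant member, and ITGB6 did not pass the test. ITGB3, the β subunit of the vitronectin receptor αVβ3, was too low to be tested in the main comparison and is described apart. Values are levels in FPKM, and differences are adapted minus parental on the log2(FPKM + 1) scale, with limma's standard error (SE) and adjusted p, a call being an adjusted p under 0.05.

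The members' genes lie on 6 chromosomes, and the coordinates here are those of GENCODE 29 on GRCh38, the genome build that the submitters' notes also give. On chromosome 2 lie ITGB6 (chr2:160099666-160200313, minus strand), ITGA6 (chr2:172427354-172506282, plus strand) and ITGAV (chr2:186590065-186680901, plus strand). On chromosome 17 lie ITGB3 (chr17:47253846-47311816), ITGA3 (chr17:50055968-50090481) and ITGB4 (chr17:75721328-75757818), all on the plus strand. The others are ITGB5 (chr3:124761948-124901418, minus strand), ITGA2 (chr5:52989326-53094779, plus strand), ITGB1 (chr10:32900319-33005792, minus strand) and ITGA5 (chr12:54395261-54419460, minus strand). The table gives 1 value per gene, so splice forms were not separated.

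Promoter windows from RefSeq (GRCh38.p14, 250 bases before to 50 bases after a transcription start) were found for 7 of the 10 members, in 12 windows. No entry was matched for ITGA3, ITGB3 and ITGB4. Each window was searched on both strands for GGAATG, the core motif of TEAD factors, and for TGANTCA, the motif of AP-1 factors. These 2 motifs do not overlap. Matches are marked in capitals. ITGA5 is shown because it had the largest difference and held both motifs (chr12:54419217-54419516, minus strand). ITGB1 is shown because it held a match and was not called (chr10:32958181-32958480, minus strand), and ITGAV because it was higher in the adapted samples and held no match (chr2:186589806-186590105, plus strand).
ITGA5: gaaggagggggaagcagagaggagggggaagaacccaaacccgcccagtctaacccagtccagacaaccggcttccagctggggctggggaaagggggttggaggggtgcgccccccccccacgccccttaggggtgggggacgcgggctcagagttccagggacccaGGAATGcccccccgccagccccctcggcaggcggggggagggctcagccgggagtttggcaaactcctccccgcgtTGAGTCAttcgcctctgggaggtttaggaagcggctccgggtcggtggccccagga
ITGB1: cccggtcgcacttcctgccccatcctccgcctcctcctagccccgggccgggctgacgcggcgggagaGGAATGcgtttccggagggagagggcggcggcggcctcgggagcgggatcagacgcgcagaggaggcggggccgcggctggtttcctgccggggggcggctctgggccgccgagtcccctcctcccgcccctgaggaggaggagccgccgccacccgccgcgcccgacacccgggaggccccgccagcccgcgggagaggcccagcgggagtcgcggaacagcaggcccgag
ITGAV: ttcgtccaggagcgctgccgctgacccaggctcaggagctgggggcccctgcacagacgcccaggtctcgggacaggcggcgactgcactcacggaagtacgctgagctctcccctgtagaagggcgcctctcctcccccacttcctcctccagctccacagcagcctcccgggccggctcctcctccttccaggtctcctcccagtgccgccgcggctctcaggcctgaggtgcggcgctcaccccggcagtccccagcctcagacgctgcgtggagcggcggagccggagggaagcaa
The ITGA5 window held GGAATG at position -82 and TGANTCA at position -6, both on the gene's strand, counted from the start site to the first base of the match. The ITGB1 window held GGAATG at position -182. GGAATG was in 2 of the 12 member windows and in 14% of all 35116 promoter windows of the same length. TGANTCA was in 1 of the 12 member windows and in 7.71% of all windows. A match is a description of the letters only, and factor binding was not measured.

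The background was high. Of the 12656 rows tested, 56.9% were called in either direction, 30.7% as higher and 26.2% as lower in the adapted samples. Of the 10 members, 9 were tested and 7 were called, 2 as higher and 5 as lower. The median log2 difference of the 9 tested members was -0.51, and that of all rows tested was 0.028. The FPKM ranges of the 2 groups did not overlap for 9 of the 10 members and for 8 of the 9 tested, against 66.3% of all rows tested. By direction, 4 of the 5 α subunits were called lower and 1 higher, while among the 4 tested β subunits 1 was called lower and 1 higher.

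**Figure D1:**
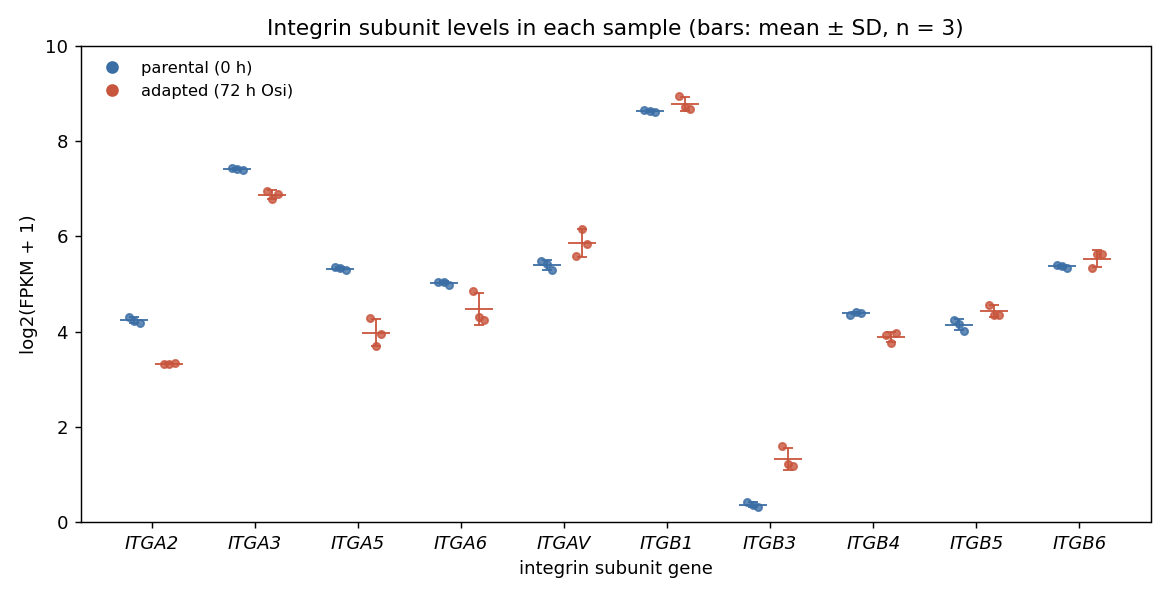
Level of each member in each sample on the log2(FPKM + 1) scale (y axis), with parental samples in blue, adapted samples in red, and bars for the mean ± SD (n = 3). ITGB1 sits highest in both groups and ITGB3 lowest, and the adapted points lie below the parental points for ITGA2, ITGA3, ITGA5, ITGA6 and ITGB4.

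**Figure D2:**
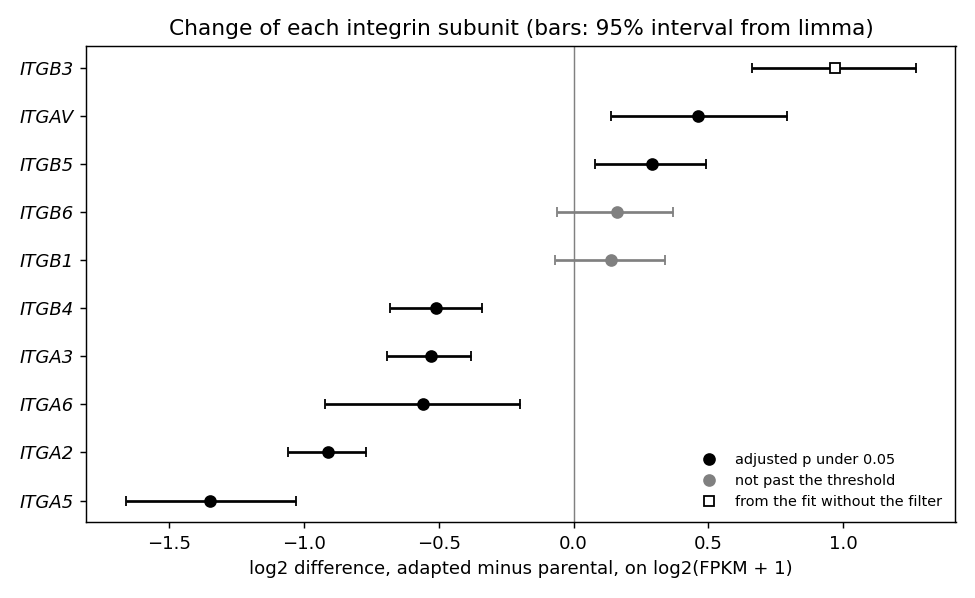
Log2 difference of each member, adapted minus parental (x axis), with its 95% interval from limma as bars. Filled black points passed the threshold, grey points did not, and the open square (ITGB3) comes from the comparison without the filter on low values, with ITGA5 at -1.35 and ITGB3 at 0.97 as the ends of the range.

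Among the α subunits that pair with β1, ITGA5 changed most. Its level was 39.9, 39.2 and 38.2 FPKM in parental samples 1 to 3 and 18.4, 12.1 and 14.4 FPKM in adapted samples 1 to 3. Every adapted sample was under every parental sample, and adapted sample 1 was the highest of its group. On the log2 scale ITGA5 went from 5.32 ± 0.03 to 3.98 ± 0.29 (SD, n = 3), a difference of -1.35 (SE 0.13, 95% interval -1.66 to -1.03, limma adjusted p = 1.69e-04). In bulk samples, fewer cells that express a gene and less RNA of it per cell cannot be told apart.

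ITGA2, the α subunit of the collagen receptor α2β1, was the most uniform of the adapted values. Its level was 18.8, 17.8 and 17.1 FPKM in the parental samples and 8.98, 8.98 and 9.15 FPKM in the adapted samples. The groups were far apart relative to the spread within either. The log2 level fell from 4.24 ± 0.07 to 3.33 ± 0.01 (SD, n = 3), a difference of -0.91 (SE 0.06, 95% interval -1.06 to -0.77, limma adjusted p = 3.20e-05).

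ITGA3, the α subunit of the laminin receptor α3β1, had the highest level of the 5 α subunits in both groups. It was at 171, 171 and 167 FPKM in the parental samples and 124, 109 and 119 FPKM in the adapted samples. The groups did not overlap, and FPKM was 1.45-fold lower in the adapted samples. The log2 level fell from 7.41 ± 0.02 to 6.88 ± 0.09 (SD, n = 3), a difference of -0.53 (SE 0.07, 95% interval -0.69 to -0.38, limma adjusted p = 4.89e-04).

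ITGA6, which forms laminin receptors with β1 and with β4, was lower by a margin that depended on the replicates. It was at 31.8, 32.1 and 30.8 FPKM in the parental samples and 28.0, 18.7 and 18.1 FPKM in the adapted samples. Adapted sample 1 was close to the parental samples, and the other two lay far below. The difference was -0.56 (SE 0.15, 95% interval -0.92 to -0.2, limma adjusted p = 0.0171). It ranged from -0.75 to -0.45 when single samples were left out, and the call was lost without parental sample 1 (adjusted p = 0.0517), parental sample 2 (0.0534), adapted sample 2 (0.0624) or adapted sample 3 (0.0553). Without adapted sample 1 the difference was -0.75 (limma adjusted p = 1.50e-05).

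ITGAV, the shared α subunit of the RGD-binding receptors, was the 1 α subunit of the 5 that was called higher. It was at 43.6, 42.0 and 38.1 FPKM in the parental samples and 47.1, 70.3 and 56.2 FPKM in the adapted samples. Every adapted sample was above every parental sample, but adapted sample 1 only slightly. The log2 level went from 5.4 ± 0.1 to 5.86 ± 0.28 (SD, n = 3), a difference of 0.46 (SE 0.14, 95% interval 0.14 to 0.79, limma adjusted p = 0.0234), or 1.4-fold in FPKM. The call was lost without parental sample 2 (adjusted p = 0.0587), parental sample 3 (0.0814) or adapted sample 3 (0.0552), and without adapted sample 1 the difference was 0.6 (limma adjusted p = 0.00171).

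ITGB1, the common partner of these α subunits, was at 401, 399 and 392 FPKM in the parental samples and 489, 419 and 406 FPKM in the adapted samples. The adapted samples were all higher, by little except in adapted sample 1. The difference was 0.14 (SE 0.09, 95% interval -0.07 to 0.34, limma adjusted p = 0.213), and it did not pass the threshold. Under quantile normalization it did (adjusted p = 0.0129), and over all alternatives the difference lay between 0.05 and 0.21.

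ITGB4, the hemidesmosomal β subunit with a long cytoplasmic tail, was the 1 β subunit called lower. It was at 19.6, 20.3 and 20.2 FPKM in the parental samples and 14.3, 12.6 and 14.6 FPKM in the adapted samples. The groups did not overlap, with tight values in each. The log2 level fell from 4.39 ± 0.03 to 3.89 ± 0.11 (SD, n = 3), a difference of -0.51 (SE 0.07, 95% interval -0.68 to -0.34, limma adjusted p = 8.61e-04).

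ITGB5, ITGB6 and ITGB3 are β subunits that pair with αV. ITGB5 was at 18.0, 16.9 and 15.2 FPKM in the parental samples and 22.7, 19.5 and 19.6 FPKM in the adapted samples. Its groups did not overlap, though the lowest adapted sample was near the highest parental sample. The difference was 0.29 (SE 0.09, 95% interval 0.08 to 0.49, limma adjusted p = 0.0266), and the call was lost without parental sample 2 (adjusted p = 0.0703) or parental sample 3 (0.0991).

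ITGB6, whose pair with αV activates latent TGF-β in epithelia, was at 41.7, 40.4 and 39.6 FPKM in the parental samples and 39.2, 49.0 and 48.6 FPKM in the adapted samples. Adapted sample 1 was under all parental samples and the other two adapted samples were above them. The difference was 0.16 (SE 0.09, 95% interval -0.06 to 0.37, limma adjusted p = 0.179), and the groups overlapped. Without adapted sample 1 it was 0.26 and was called (limma adjusted p = 0.00232).

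ITGB3 was the lowest of the 10 members. It was at 0.342, 0.281 and 0.245 FPKM in the parental samples and 2.03, 1.33 and 1.26 FPKM in the adapted samples. Every adapted sample was above every parental sample, but all levels were low beside those of the other members. Without the filter on low values, 36.6% of 23902 rows were called, and ITGB3 was among them with a difference of 0.97 (SE 0.13, 95% interval 0.66 to 1.27, limma adjusted p = 0.00205). The ratio of mean FPKM was 5.33, and with a pseudocount of 0.1 in place of 1 the log2 difference was 2.05 (limma adjusted p = 0.00103). In GENCODE 29, ITGB3 shares 2266 exonic bases on its own strand with AC068234.1, which is listed at 0 in this table, and how fragments in shared exons were assigned is not stated.

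By level, the order of the means was ITGB1, ITGA3, ITGAV, ITGB6, ITGA5, ITGA6, ITGB4, ITGA2, ITGB5 and ITGB3 in the parental samples. ITGAV (41.2 ± 2.8 FPKM) and ITGB6 (40.6 ± 1.04 FPKM), and also ITGB6 and ITGA5 (39.1 ± 0.829 FPKM), were neighbours whose values overlapped in the parental samples, as were ITGA2 and ITGB5. In the adapted samples ITGAV (57.9 ± 11.7 FPKM) was the third of the 10 and ITGA5 (SD of 3.23 FPKM, n = 3) lay between ITGB5 and ITGB4 (13.8 ± 1.12 FPKM). The adapted values of ITGA5 and ITGB4 overlapped, as did those of ITGA6 and ITGB5 and those of ITGAV and ITGB6.

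The summed FPKM of the 5 α subunits was 299 ± 7.39 in the parental and 220 ± 5.06 in the adapted samples (SD, n = 3), with no overlap between groups. The summed FPKM of the 5 β subunits was 475 ± 6.9 in the parental and 520 ± 41.6 in the adapted samples, of which ITGB1 made up 83.7% and 84.2%. Within the α sum, the share of ITGAV was 14.3%, 13.9% and 13.1% in the parental samples and 20.8%, 32.2% and 26.0% in the adapted samples. ITGA5 held 13.1 ± 0.0818% and then 6.78 ± 1.32% of the sum, and ITGA2 held 5.97 ± 0.163% and then 4.1 ± 0.129% (SD, n = 3). The share of ITGA3 went from 56.6 ± 0.622% to 53 ± 2.92%. ITGA6 held 10.6 ± 0.104% in the parental and 9.75 ± 2.27% in the adapted samples, and these shares overlapped. A share can move because another member of the sum moved.

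**Figure D3:**
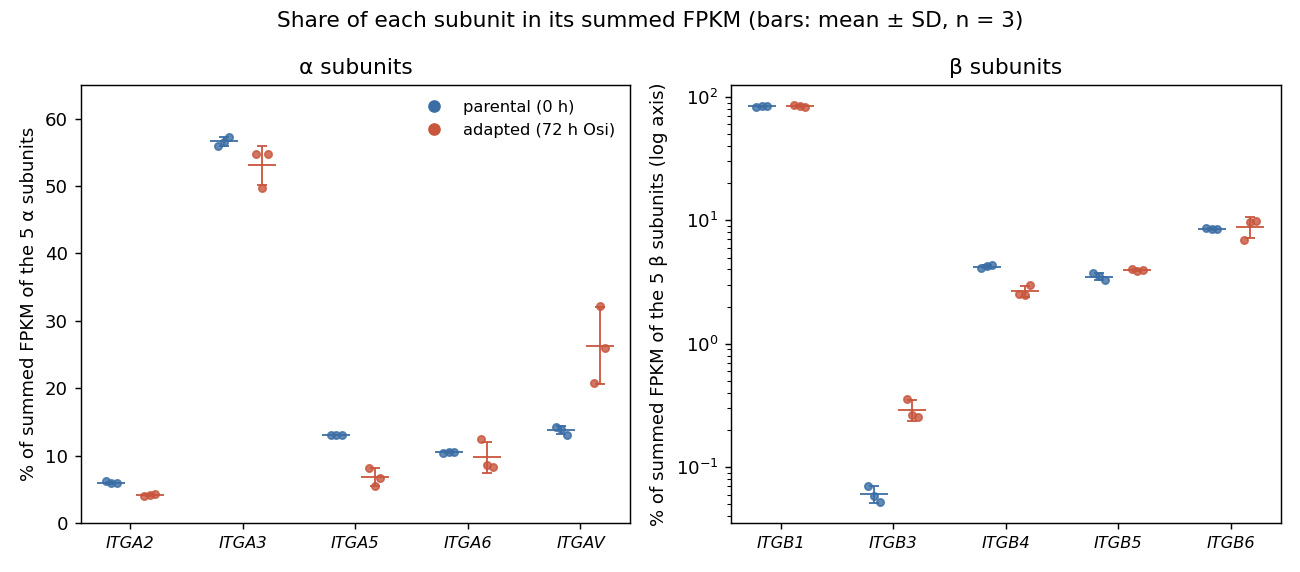
Share of each subunit in the summed FPKM of the 5 α members (left, linear axis in percent) and of the 5 β members (right, log axis in percent), per sample, with bars for the mean ± SD (n = 3). The ITGAV share lies at 13.1% to 14.3% in the parental and 20.8% to 32.2% in the adapted samples, and ITGB1 holds 82.9% to 86.2% of the β sum.

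The ratio of 2 subunits within a sample does not depend on how that sample was scaled. With 3 samples against 3, a two-sided exact permutation test cannot go below p = 0.1, so no ratio could pass 0.05, and an exact p of 0.1 here means that the groups did not overlap. Against ITGB1, the ratio of ITGA5 was 0.0983 ± 0.001 in the parental and 0.034 ± 0.00464 in the adapted samples (log2 difference -1.54, exact p = 0.1). The ITGA2 to ITGB1 ratio was 0.045 ± 0.0017 and 0.0208 ± 0.00216 (log2 difference -1.12, exact p = 0.1). The ITGA3 to ITGB1 ratio was 0.426 ± 0.00135 and 0.268 ± 0.0211 (log2 difference -0.67, exact p = 0.1). For ITGA6 to ITGB1 the values were 0.0795 ± 0.000868 and 0.0487 ± 0.00735 (log2 difference -0.72, exact p = 0.1). All 4 of these laminin, collagen and fibronectin receptor α subunits were thus lower per ITGB1 in each adapted sample than in any parental sample. The ITGAV to ITGB1 ratio overlapped between groups, at 0.104 ± 0.00584 and 0.134 ± 0.0359 (exact p = 0.4).

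For the hemidesmosomal pair the groups overlapped. The ITGA6 to ITGB4 ratio was 1.58 ± 0.0471 in the parental and 1.56 ± 0.367 in the adapted samples (log2 difference -0.04, exact p = 0.7). Single adapted values of 1.96, 1.49 and 1.23 show how wide the adapted group was. The ITGB4 to ITGB1 ratio did not overlap between groups, at 0.0504 ± 0.00132 and 0.0317 ± 0.00374 (log2 difference -0.67, exact p = 0.1).

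For the αV receptors, the ITGAV to ITGB3 ratio was 144 ± 14.9 in the parental and 40.2 ± 15.3 in the adapted samples (log2 difference -1.92, exact p = 0.1). The ITGAV to ITGB6 ratio was 1.02 ± 0.0461 and 1.26 ± 0.15 (log2 difference 0.31, exact p = 0.1), without overlap. The ITGAV to ITGB5 ratio overlapped, at 2.47 ± 0.0431 and 2.86 ± 0.768 (log2 difference 0.17, exact p = 0.7). Between 2 of the β partners of αV, the ITGB3 to ITGB5 ratio was 0.0173 ± 0.00156 and 0.0742 ± 0.0135 (log2 difference 2.09, exact p = 0.1). The ITGAV to ITGA5 ratio, which was chosen after its values were seen, was 1.09, 1.07 and 0.998 in the parental samples and 2.56, 5.83 and 3.9 in the adapted samples.

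**Figure D4:**
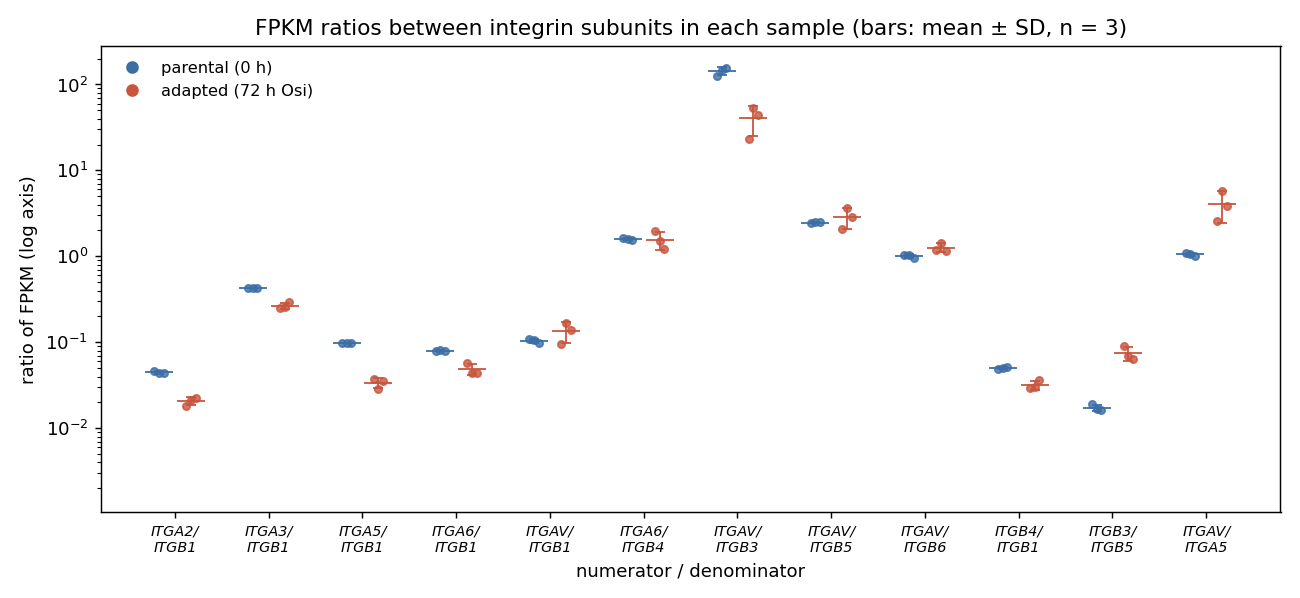
Ratio of FPKM between 2 subunits in each sample (log axis), numerator over denominator as named, with bars for the mean ± SD (n = 3). The 4 ratios of ITGA2, ITGA3, ITGA5 and ITGA6 to ITGB1 are lower in every adapted sample, while the ITGA6 to ITGB4 ratio lies between 1.53 and 1.62 in the parental and between 1.23 and 1.96 in the adapted samples.

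Adapted sample 1 was the adapted sample nearest to the parental level for ITGA3, ITGA5, ITGA6, ITGAV and ITGB6, and the farthest above it for ITGB1, ITGB3 and ITGB5. Pairwise correlations over all rows were 0.997 among the parental samples and 0.991 to 0.996 among the adapted samples. All 6 epithelial markers were at 1 FPKM or more on average, with a summed level of 3710 to 3740 FPKM in the parental and 3490 to 3790 FPKM in the adapted samples. That sum held opposite changes, which are named after their values were seen: KRT7 was called higher (671 ± 4.78 to 1420 ± 196 FPKM), and KRT8 (904 ± 10.2 to 748 ± 94.5 FPKM), KRT18 (853 ± 6.86 to 579 ± 85.4 FPKM) and KRT19 (936 ± 4.2 to 556 ± 58.6 FPKM, SD, n = 3) were called lower by limma. The call of KRT8 (adjusted p = 0.0477) was lost in 9 of 19 alternatives at the same threshold. The lung adenocarcinoma markers summed to 133 to 134 and 79.5 to 124 FPKM, with SFTPB close to 0, and of the other two NKX2-1 was called higher (31.1 ± 0.251 to 43.9 ± 7.42 FPKM) and NAPSA lower (102 ± 0.39 to 59 ± 14.9 FPKM). The fibroblast markers, none of 5 at 1 FPKM on average, summed to 0.0461 to 0.0744 and 0.599 to 2.38 FPKM, and PDGFRA, PDGFRB and DCN were under 0.1 FPKM. Within this sum LUM was at 0.0376 ± 0.0078 and 0.531 ± 0.114 FPKM (SD, n = 3), higher in the adapted samples. COL3A1 was also higher there, at 0.00507 ± 0.00878 and 0.601 ± 0.859 FPKM, with 1.59 FPKM in adapted sample 1. The endothelial markers summed to 1.13 to 1.88 and 1.53 to 3.51 FPKM, with TEK under 0.1 FPKM, and within this sum PECAM1 was at 1.35 ± 0.325 and 0.0634 ± 0.0113 FPKM and CDH5 at 0.156 ± 0.0437 and 2.39 ± 1 FPKM. Of the 6 leukocyte markers, PTPRC was under 0.1 FPKM and CD3E was listed at 0, and their sum of 75.3 to 77.9 and then 15.6 to 30.1 FPKM was nearly all CD68. Mitochondrially encoded genes held 8.07% to 8.66% of the summed FPKM in the parental and 9.73% to 12.2% in the adapted samples, and rescaling each sample without those genes left 2 members called higher and 5 lower. The part of the marker levels in the members' results was not tested.

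Of the other 16 integrin subunit genes, 3 were tested, 2 were called higher and none lower, against 30.7% and 26.2% of all rows tested. ITGB8, another β partner of αV, was at 2.42, 2.45 and 2.08 FPKM in the parental samples and 4.59, 7.4 and 5.61 FPKM in the adapted samples. Its groups were well separated, with a difference of 1.03 (SE 0.15, limma adjusted p = 8.90e-04). ITGB2, the β subunit of leukocyte integrins, was at 17.1 ± 0.31 and 20.8 ± 1.2 FPKM (SD, n = 3), a difference of 0.27 (SE 0.06, limma adjusted p = 0.00939). ITGAE, an α partner of β7, had a difference of 0.06 (SE 0.14, limma adjusted p = 0.751). The remaining 13 were too low to be tested, ITGA8 was listed at 0 in all samples, and the highest of them, ITGA1, picked for that level, was at 1.24 FPKM in the parental samples. In the comparison without the filter, which called ITGB3 higher, 12 of these 13 could be tested. Of these 12, 3 were called lower and none higher, beside 36.6% of all 23902 rows called in either direction. The 3 were ITGA1 (-0.38, limma adjusted p = 0.011), ITGAX (-0.33, 0.0164) and ITGA2B (-0.18, 0.0341), all at low levels.

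Of the 76 tested genes on 8 lists of adhesion genes, 36 (47.4%) were called higher and 12 (15.8%) lower, against 30.7% and 26.2% of all rows tested, with a median log2 difference of 0.25 beside 0.028 for all rows. Calls in either direction made up 63.2% of these genes and 56.9% of all rows. A gene that passes the filter through 1 group only had to differ, and over the 73 genes whose means passed it in both groups 34 were called higher and 12 lower. For the 27 of these genes given below by their difference alone, the SE was 0.05 to 0.21 and the limma adjusted p at most 0.0192. Among matrix proteins with an RGD motif and other secreted ligands, 7 of 10 tested genes were called higher and 2 lower, with a median of 1.6. IBSP, an RGD protein of bone, passed the filter only through the adapted samples, and without it 6 of 9 were called higher, with a median of 1.72. THBS1 (thrombospondin 1), a matrix glycoprotein, was at 3.33, 3.53 and 3.32 FPKM in the parental samples and 85.9, 90.3 and 75.3 FPKM in the adapted samples, a difference of 4.27 (SE 0.08, limma adjusted p = 2.18e-07). CTGF (CCN2) and CYR61 (CCN1), matricellular proteins that bind integrins, rose by 3.06 and 2.11 on the log2 scale. TNC (tenascin C), another matrix glycoprotein, fell by 2.40, from 187 ± 4.18 to 35.9 ± 13 FPKM (SD, n = 3). These 4 genes kept their calls in every alternative at the same threshold in which they were tested.

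The ligand of α5β1, FN1 (fibronectin), named here after its values were seen, was at 103, 103 and 102 FPKM in the parental samples and 213, 339 and 330 FPKM in the adapted samples. It was higher by 1.48 (SE 0.17, limma adjusted p = 3.15e-04) in the samples in which ITGA5 was lower. SPP1 (osteopontin), an RGD ligand of αV integrins also named after its values were seen, was at 278, 273 and 273 FPKM in the parental samples and 293, 13.7 and 10.0 FPKM in the adapted samples. Adapted sample 1 was at the parental level and the other two were far below, so that the groups overlapped (difference -2.93, limma adjusted p = 0.0581). Without adapted sample 1 the difference was -4.44 (limma adjusted p = 2.72e-07). EDIL3 and MFGE8, on the same list of ligands and also named after their values were seen, went the other way. EDIL3 was higher by 1.99 (SE 0.13, limma adjusted p = 2.58e-05), from 18.4 ± 0.664 to 76.9 ± 14.3 FPKM. MFGE8 was higher by 1.72 (SE 0.09, limma adjusted p = 1.15e-05), from 6.94 ± 0.55 to 25.1 ± 2.39 FPKM. TGFB1, whose latent form is an RGD ligand, differed by -0.28 (limma adjusted p = 0.0377), and its call was lost in 6 of 19 alternatives at the same threshold.

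Of the 7 tested laminin chains, 2 were called higher and 1 lower, or 42.9% in either direction against 56.9% of all rows, with a median of -0.12. LAMB2 and LAMA5 rose by 0.49 and 0.32, and LAMA3, the α chain of the main laminin under hemidesmosomes, fell by 0.39 on the log2 scale. LAMB3, a laminin β chain named after its values were seen, was at 162, 159 and 154 FPKM in the parental samples and 89.9, 138 and 133 FPKM in the adapted samples. The groups did not overlap, adapted sample 1 was the lowest, and the difference was -0.42 (SE 0.16, limma adjusted p = 0.053). Without adapted sample 1 it was -0.22 and was called (limma adjusted p = 0.00627). LAMB3 was also called without adapted sample 2 (0.0354) and with median centring (0.044). Of 6 tested collagen chains, 5 were called higher and none lower, against 30.7% and 26.2% of all rows, with a median of 1.08. COL5A1 passed the filter only through the adapted samples, at 0.27, 0.34 and 0.301 FPKM in the parental samples and 6.09, 3.37 and 3.3 FPKM in the adapted samples, and its difference depended on the pseudocount (1.97 as deposited, 3.38 with 0.1). Without it 4 of 5 chains were called higher, with a median of 1.05: COL4A2 (1.15), COL1A1 (1.12), COL4A1 (1.05) and COL6A2 (0.82).

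All 4 hemidesmosome partners of α6β4 were called higher, against 30.7% of all rows tested, while ITGA6 and ITGB4 were called lower. DST, whose products include the plakin BP230, rose by 0.90, from 23.5 ± 0.576 to 44.9 ± 3.48 FPKM. Its splice forms were not separated, so this value is not that of BP230 alone. The tetraspanin CD151 rose by 0.79 and the plakin PLEC by 0.27 on the log2 scale. COL17A1, a transmembrane collagen, was at 27.8, 28.7 and 26.4 FPKM in the parental samples and 29.8, 77.1 and 71.0 FPKM in the adapted samples. Adapted sample 1 was again near the parental samples, the difference was 0.96 (SE 0.32, limma adjusted p = 0.037), and the call was lost in 6 of 19 alternatives at the same threshold. Without adapted sample 2 it was 0.72 (limma adjusted p = 0.12).

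Of 10 tested activators and inhibitors of integrins, 4 were called higher and 2 lower, or 60.0% in either direction against 56.9% of all rows. TLN1 (talin 1), which activates integrins through the β tail, rose by 0.42, and FLNA (filamin A), which competes with talin for that tail, rose by 0.76 on the log2 scale. The 2 kindlins that were tested went in opposite directions (the other, FERMT3, was too low to be tested): FERMT1 (kindlin 1), of epithelia, fell from 17.4 ± 0.445 to 10.9 ± 1.19 FPKM (difference -0.63, SE 0.08, limma adjusted p = 5.69e-04), and FERMT2 (kindlin 2) rose by 0.25 (SE 0.06, limma adjusted p = 0.012). ITGB1BP1, an inhibitor that binds the β1 tail, rose by 0.24, and its call was lost without parental sample 2 (limma adjusted p = 0.0528). RASSF5, an effector of RAP1, differed by -0.29 (limma adjusted p = 0.0437), and its call was lost in 7 of 18 alternatives at the same threshold.

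Of 27 tested adhesion adaptors and kinases, 9 were called higher and 5 lower, or 51.9% in either direction against 56.9% of all rows, with a median of 0.02. NEDD9, a scaffold of the p130Cas family, was at 1.26, 1.24 and 1.38 FPKM in the parental samples and 10.4, 22.4 and 23.5 FPKM in the adapted samples (difference 3.03, SE 0.27, limma adjusted p = 1.10e-04). PARVA, a partner of ILK (integrin-linked kinase), rose by 1.09 and ACTN1 (α-actinin 1), which links integrins to actin, by 1 on the log2 scale. PTK2B (PYK2), the kinase related to FAK, fell by 0.87, LPP by 0.80 and VASP, an actin regulator, by 0.53. VCL (vinculin) fell by 0.29 and the kinase SRC by 0.18, and both calls were lost without parental sample 1 (limma adjusted p = 0.0533 and 0.0633) or parental sample 2 (0.0628 and 0.0905), as was that of SRC without parental sample 3 (0.065) and in the rescaling without mitochondrially encoded genes (0.0668). PTK2, which encodes FAK and is named after its values were seen, differed by -0.08 (95% interval -0.24 to 0.07, limma adjusted p = 0.297).

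Among 9 tetraspanins and other lateral partners, 3 were called higher and 2 lower, or 55.6% in either direction against 56.9% of all rows. CAV1 (caveolin 1) rose by 0.87 and the tetraspanin CD9 by 0.84. The tetraspanin CD63 differed by 0.26 (limma adjusted p = 0.0193), a call that was lost without parental sample 2 (0.0869) or parental sample 3 (0.0641). CD82, a tetraspanin, fell by 1.20, from 8.56 ± 0.621 to 3.28 ± 1.25 FPKM, and PLAUR, the urokinase receptor, fell by 0.86 on the log2 scale.

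**Figure D5:**
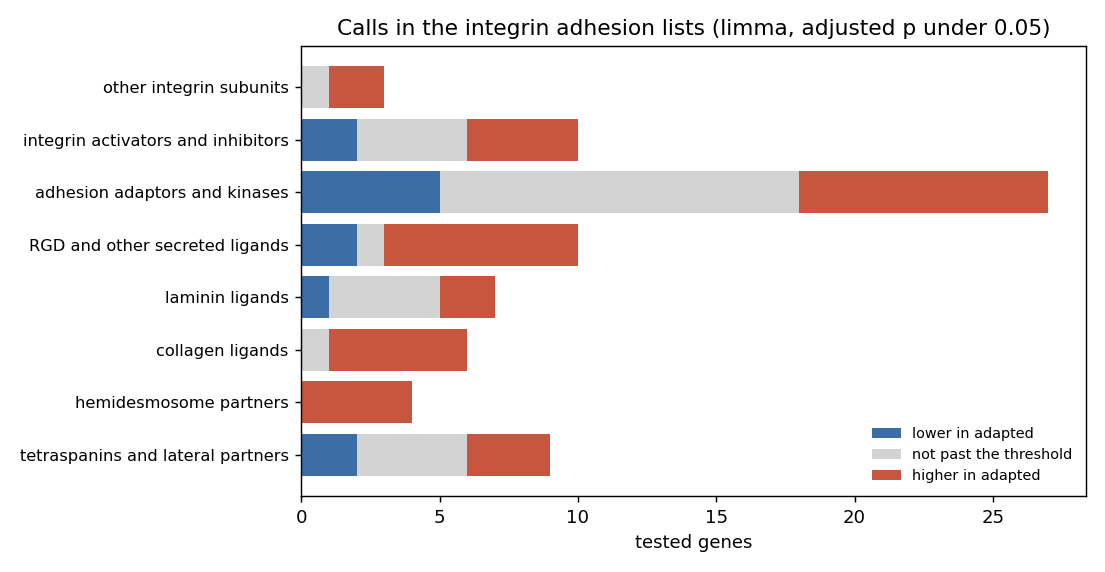
Number of tested genes (x axis) called lower (blue), not past the threshold (grey) and called higher (red) in the adapted samples for each of the 8 adhesion lists, by limma at adjusted p under 0.05. All 4 hemidesmosome partners and 7 of 10 secreted ligands were called higher, and 14 of 27 adaptors and kinases were called in either direction. Of all rows tested, 30.7% were called higher and 56.9% in either direction.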

How the data were processed

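The analysis used RNA-sequencing of H1975 cells, 6 samples in all, 3 parental (0 h) and 3 adapted (72 h of Osi). The authors deposited 1 table of log2 values, whose columns named DMSO and OSI were matched to the 0 h and 72 h samples by group and replicate number. The unit is not named. It was taken as log2(FPKM + 1) from the values, since the linear values carried 6 decimals for 27069 of 27216 rows and summed to 375342 to 387753 per sample. In the other 147 rows 1 group was shifted by a constant, and no gene described here was among them. The submitters' processing notes name hg38, Bowtie2 2.1.0, STAR and edgeR without their roles, and the methods name DESeq2, which needs counts. The quantifier, the annotation and the use of strand are not given in the sources used here. No counts were used, so the depth is unknown and errors come from the replicates alone.

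Rows with a mean log2 value of at least 1 (12656) entered an unpaired fit in limma 3.58.1 (R 4.3.3) with lmFit and a trended eBayes, and p-values were adjusted by Benjamini-Hochberg over all of them, with 0.05 as threshold. ITGB3 did not pass this filter and was taken from the same test without it. The limma fit was tested on simulated data. Ratios were compared with a two-sided exact permutation test in scipy 1.17.1. Genes were matched by symbol, 2 of 132 by an older one. Where antisense genes share exonic bases with a member (up to 203 bases, for ITGAV), their reads cannot be told apart without strand.

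The members and lists were chosen with earlier results of these data known. All members were named, and from each list the called genes without overlap between groups that had the largest differences, at most 3 in each direction, and each tested subunit among the other integrin genes. PLEC, ITGB1BP1, VCL, SRC, COL4A1 and COL6A2, which complete counts of 5 or fewer, were added once their values had been seen. So were FN1, SPP1, EDIL3, MFGE8, LAMB3, PTK2, IBSP, FERMT3, ITGA1, ITGAX and ITGA2B, and single marker genes. Some results are not reported here. Alternatives comprised a smaller pseudocount (0.1), testing without a filter, a mean of at least 3, quantile normalization, equal sums with and without mitochondrially encoded genes, median centring, eBayes without a trend or robust, the replicate number as a block, each sample left out in turn, the shifted rows left out or corrected, rows named NewGene_ left out, and stricter thresholds. Alternatives for ITGB3 without the filter were added after seeing the data.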

Additional observations from a re-analysis of the deposited data

How the results depend on the processing

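ITGA2, ITGA3, ITGA5 and ITGB4 kept their calls under all alternatives at the 0.05 threshold. The number of all rows called was 4532 with a mean of at least 3 and 1328 with an absolute log2 difference of at least 1, and it lay between 5778 and 8371 when 1 sample was left out. The number of members called higher was 0 at an adjusted p of 0.01 and 0 with a difference of at least 1, and between 0 and 3 with 1 sample left out, with 0 without parental sample 2 or parental sample 3 and 1 without adapted sample 3. With a difference of at least 1 the number of members called lower was 1 (ITGA5), and the adhesion lists held 14 genes called higher and 2 lower. With 1 sample left out, the adhesion lists held 33 to 39 genes called higher and 8 to 17 lower. The ITGA6 to ITGB4 ratio reversed to 0.11 without adapted sample 3, within -0.22 to 0.11, and the ITGAV to ITGB5 ratio to -0.02 without adapted sample 2, within -0.02 to 0.38. The difference of ITGAE turned to -0.01 under quantile normalization and to -0.05 without adapted sample 1, within -0.05 to 0.22. Apart from settings that leave out samples or tighten a threshold, the causes were not tested.

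With the replicate number as a block, 6761 rows were called, and members were 2 higher and 5 lower. Deviations of same-numbered samples correlated at -0.0509, -0.0309 and -0.0203, and those of differently numbered samples at -0.0363 to 0.0658. With 3 samples per group these values cannot show whether same-numbered samples were handled together. The sources name no pairing, and none was used. The block ended the calls of SRC (adjusted p = 0.0604), CD63 (0.0565) and KRT8 (0.0828), and SPP1 was called under it (0.0395). ITGB3, tested without the filter, was called with each sample left out (0.83 to 1.04) and with the block (0.97). Counts could not be recovered, so depth sets no limit that could be stated for low genes such as ITGB3.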
